A study of Mus musculus with 9 samples.

Results

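The genes examined were 10 subunits of the mouse SWI/SNF (BAF) chromatin remodelling complex, namely Smarca4, Smarca2, Smarcb1, Smarcc1, Smarcc2, Smarcd1, Smarcd2, Smarcd3, Arid1a and Arid1b. They were taken by name from the 46078 gene identifiers counted by RNA-seq in 9 libraries, with earlier results of these data known. The paper on these libraries had already named Smarcd1 among genes with high expression at 48 h. All 10 were detected in every library and passed the filter on low counts in every comparison. The cells were EGFP-SSCs, a mouse spermatogonial stem cell line of WT genotype that expresses EGFP, maintained at 0 h in normal culture on mitomycin C-exposed mouse embryonic fibroblasts with GDNF, basic fibroblast growth factor and epidermal growth factor. For the 24 h and 48 h groups, the cells had been mixed 1:1 with somatic cells of busulfan-exposed testes (3-7 dpp) and cultured in α-MEM with KSR, BMP-4/7, retinoic acid, activin A, testosterone, FSH and BPE, and EGFP-positive cells were then sorted by flow cytometry. The labels do not give a sort for 0 h, while the paper speaks of sorting at the different stages, so the 0 h cells may have been sorted too. Each group held 3 biological replicates of this 1 line, and time cannot be told apart from the change of medium, growth factors and neighbouring cells between 0 h and the later groups.

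SWI/SNF complexes use the energy of ATP to slide or evict nucleosomes and so alter access to DNA. A complex carries a single ATPase, BRG1 (Smarca4) or BRM (Smarca2), and in the canonical form its core holds BAF47 (Smarcb1), the scaffold subunits BAF155 and BAF170 (Smarcc1, Smarcc2) and a BAF60 subunit (Smarcd1, Smarcd2 or Smarcd3), with ARID1A or ARID1B (Arid1a, Arid1b) added to it. Paralogs occupy the same position, so the complexes of a cell can differ in their makeup, and in the mouse male germline BRG1 is required for meiosis.

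Smarca2, Smarcd1 and Smarcd2 were the only members called in any comparison, and their promoters are shown for that reason. Each window spans 250 bases before and 50 bases after the RefSeq start (GRCm38.p6). The window of Smarca2 is chr19:26604910-26605209 on the plus strand, that of Smarcd1 chr15:99702037-99702336 on the plus strand and that of Smarcd2 chr11:106267583-106267882 on the minus strand, each printed 5′ to 3′ along its gene. Capitals mark a GC box (GGGCGG), an ETS site (CCGGAAG) or a TATA box (TATAAA) on either strand.
Smarca2: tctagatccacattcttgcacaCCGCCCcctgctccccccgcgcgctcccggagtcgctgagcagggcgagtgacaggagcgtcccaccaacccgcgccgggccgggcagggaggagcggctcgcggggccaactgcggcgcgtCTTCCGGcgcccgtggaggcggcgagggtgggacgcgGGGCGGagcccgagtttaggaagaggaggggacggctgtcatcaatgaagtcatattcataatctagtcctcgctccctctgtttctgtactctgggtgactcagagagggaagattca
Smarcd1: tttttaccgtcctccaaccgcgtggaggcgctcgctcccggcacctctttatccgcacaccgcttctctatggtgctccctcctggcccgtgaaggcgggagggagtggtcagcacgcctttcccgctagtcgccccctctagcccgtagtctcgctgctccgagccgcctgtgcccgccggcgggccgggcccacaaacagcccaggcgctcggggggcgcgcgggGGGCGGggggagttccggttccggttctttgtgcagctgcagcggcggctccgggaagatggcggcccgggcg
Smarcd2: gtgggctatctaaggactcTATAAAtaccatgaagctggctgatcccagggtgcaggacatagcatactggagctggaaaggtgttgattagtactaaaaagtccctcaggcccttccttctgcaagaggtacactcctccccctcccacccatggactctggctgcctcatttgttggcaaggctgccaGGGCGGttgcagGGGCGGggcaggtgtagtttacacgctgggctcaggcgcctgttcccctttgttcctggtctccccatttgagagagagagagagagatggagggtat
The Smarca2 window held 2 GC boxes, 1 ETS site and 29 CpG dinucleotides, and that of Smarcd1 held 1 GC box and 35 CpG dinucleotides. The Smarcd2 window differed from both, with 2 GC boxes, 4 CpG dinucleotides and a GC content of 55%, against 65.7% for Smarca2 and 71.3% for Smarcd1. It also held the letters of a TATA box, but near its 5′ end, far upstream of the RefSeq start. It lies inside the gene (chr11:106263179-106272972), downstream of the annotated 5′ end, while the other 2 windows cover the 5′ ends of their genes. The Smarcd2 window may thus not stand for its main promoter. In the annotation (GENCODE M21), 4 of the 46 Smarca2 transcripts, 2 of 7 Smarcd1 transcripts and 1 of 9 Smarcd2 transcripts started inside these windows, so other starts were left out of view.

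RefSeq listed a promoter for all 10 members, with 2 for Arid1a. A GC box occurred in at least 1 window of 10 of the 10 members and in 35.7% of 32851 mouse promoters of the same length. The ETS site occurred in 2 members (Smarca2 and Smarcc1) against 8.86% of all promoters, and the letters of a TATA box in 1 (Smarcd2) against 13.6%. No member window held the letters of a CCAAT box (CCAAT, 37.4% of promoters), an E-box (CACGTG, 7.15%) or a perfect DR5 retinoic acid response element (0.00913%), all searched on both strands. Windows of the members other than Smarcd2 held 22 to 48 CpG dinucleotides, against a median of 7 over all promoters. Like that of Smarcd2, the windows of Smarcc1, Smarcd3 and Arid1b and 1 of those of Arid1a lie inside their genes, downstream of the annotated 5′ end. Of the annotated transcripts, 5 of 9 for Smarcc1, 2 of 9 for Smarcd3 and 3 of 7 for Arid1b started inside the window.

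The libraries held 16825251 to 22201892 counts. The 0 h replicates stood further apart from each other than those of the later groups, with a chi-square per degree of freedom of 39.4 to 90.9 between pairs against 7.78 to 28.7, and the biological coefficient of variation was 0.22 and 0.228 in the comparisons with 0 h and 0.115 between 48 h and 24 h. Summed over 8 germ cell markers (Ddx4, Dazl, Mael, Tdrd1, Rnf17, Dnd1, Tex101 and Zbtb16), the level in CPM (counts scaled to a common library size) was 1826 to 2898 before co-culture, 2028 to 2279 after 24 h and 2087 to 2393 after 48 h, so germ cell RNA was present throughout. Summed markers of several other cell types were higher at the later times: the 7 stromal markers summed to 310.5 to 397, 2112 to 2443 and 2835 to 3127 CPM in the groups of 0 h, 24 h and 48 h, and the 6 myoid markers to 13.8 to 15.7, 146 to 208 and 263 to 321. The 9 Sertoli markers summed to 23.8 to 25.1, 57.8 to 94.7 and 93.8 to 110 CPM (Fshr at 0 in all 0 h libraries) and the 6 Leydig markers to 4.49 to 6.80, 24.6 to 38.6 and 25.3 to 32.6 (Hsd3b1 and Insl3 at 0 at 0 h). The 5 endothelial markers went the other way, with 70.2 to 77.2 CPM at 0 h and 20.9 to 24.0 at 48 h, as did the 6 macrophage markers with 16.2 to 18.0 and 7.65 to 8.41 (C1qa at 0 in both groups). The genes of a list did not all move together. Among the germ cell markers, Zbtb16 and Dnd1 were called lower by edgeR at 48 h than at 0 h (log2 fold changes of -0.57 and -0.61). Both were also called lower at 48 h than at 24 h, where Rnf17 was called higher (0.51). Dazl, with the highest level of the 8, read 1351, 831 and 421 CPM in the 0 h libraries. Thy1 among the stromal markers and Rhox5 among the Sertoli markers were called lower by edgeR at both later times (log2 fold changes at 24 h of -1.49 and -2.57), as was Sox9 at 24 h (-0.80). Tek among the endothelial markers and Cd14 among the macrophage markers were called higher at both times (1.31 and 1.43 at 24 h), as was Csf1r at 24 h (1.90), and Cd68 made up most of the macrophage sum. The part of these cells in the results below was not tested.

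Following 24 h of co-culture, 1 of the 10 members was called at an adjusted p of up to 0.05 in edgeR's quasi-likelihood test, and it fell (Smarca2), where 25.5% of the 17592 genes tested were called, 11.4% higher and 14.2% lower. In this fit and in that of DESeq2 no member was called higher at 24 h, and Smarcd1 and Smarcd3 were the 2 members higher at an unadjusted p under 0.05. At 48 h relative to 0 h, 3 of the 10 were called, with Smarcd1 higher and Smarca2 and Smarcd2 lower, against 31.6% of 17755 genes (13% higher and 18.5% lower). Between 48 h and 24 h the calls were those of the same 3 genes in the same directions, against 21.3% of 17499 genes (8.61% higher and 12.7% lower). In these edgeR fits, the share of members called was thus below the background at 24 h and near or slightly above it in the other comparisons. Leaving out 1 library moved the count at 24 h to 4 without 0 h replicate 3 and to 0 without 24 h replicate 2 or 24 h replicate 3. With library size as the only scaling, the median log2 change of all genes shifted to 0.12 at 24 h and 0.13 at 48 h, the share of calls that were higher went from 44.6% to 57.1% and from 41.2% to 52.8%, and 2 and 5 members were called. Over all genes, the calls under that scaling numbered 4802 and 5765, against 4494 and 5602 before. The comparisons share libraries, so their calls are not independent.

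The size of the changes was modest. The median log2 fold change over the 10 members was 0.17 and 0.12 when the 24 h and 48 h groups were set against 0 h, and -0.06 from 24 h to 48 h, beside 0.01, 0.02 and -0.00 over all genes tested. The median absolute log2 change of the members was 0.19, 0.30 and 0.17, beside 0.28, 0.33 and 0.17 for genes with a mean of at least 10 CPM. The libraries of both groups did not overlap in CPM for 4, 6 and 5 of the 10 members, against 43.4%, 48.3% and 39.6% of all genes.

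**Figure D1:**
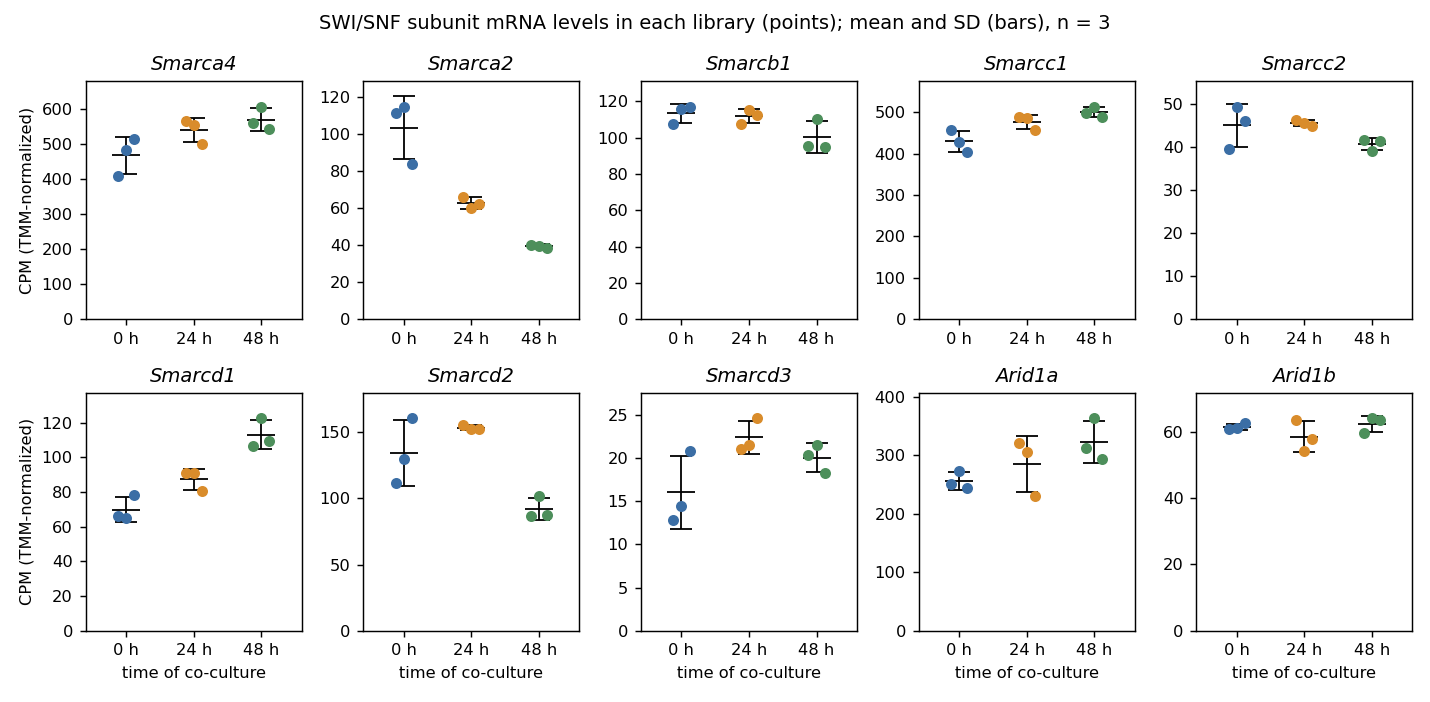
TMM-normalized CPM of each SWI/SNF subunit (y axis, from 0, with a scale of its own in each panel) at 0 h, 24 h and 48 h of co-culture (x axis). Points are single libraries, and bars give the mean and SD of 3. Smarca2 steps down at each time, Smarcd1 steps up, and Smarcd2 is lowest at 48 h, while none of the other 7 genes was called.

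**Figure D2:**
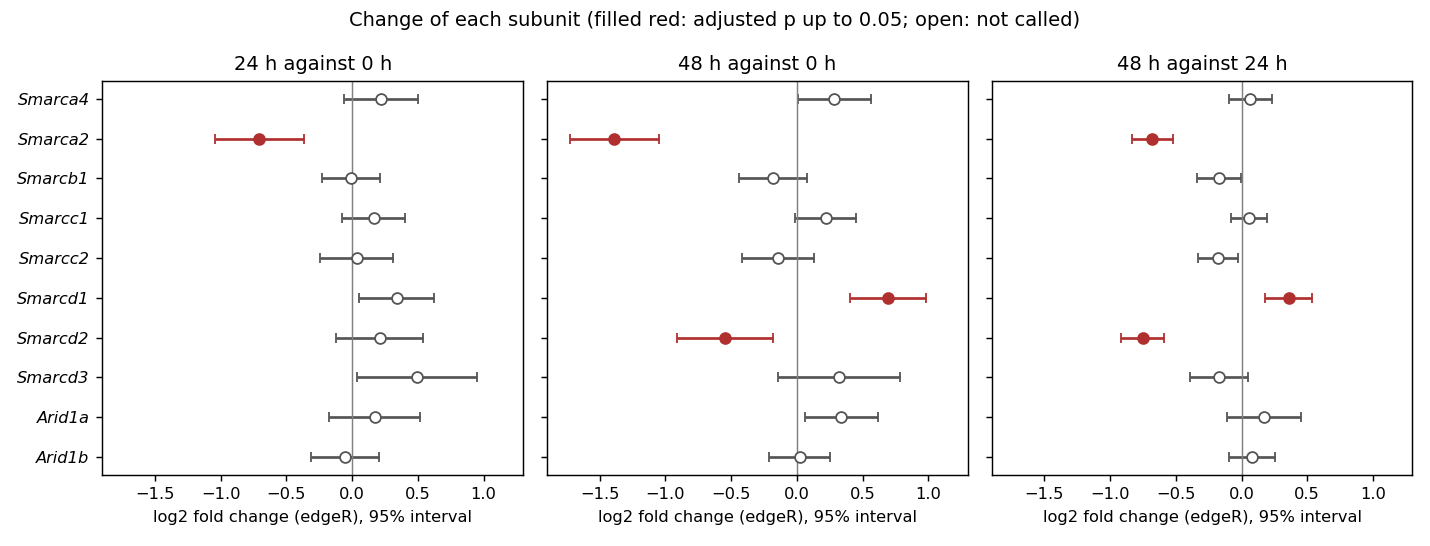
The log2 fold change of each subunit (x axis) with its 95% interval from edgeR in the 3 comparisons, 3 libraries a group. Filled red points passed an adjusted p of 0.05 and open points did not: Smarca2 alone at 24 h, and Smarca2, Smarcd1 and Smarcd2 in both comparisons of the 48 h libraries.

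Smarca4 encodes BRG1, the ATPase that was the most abundant member per length over the union of exons. It lies at chr9:21616169-21704230 (GRCm38) and read 410, 483 and 514 CPM at 0 h, 566, 554 and 501 CPM at 24 h, and 561, 608 and 543 CPM at 48 h. The 24 h libraries overlapped those of 0 h, while the 48 h libraries lay above them. The log2 fold change was 0.22 (95% interval -0.07 to 0.50, edgeR adjusted p = 0.242) at 24 h and 0.28 (0.01 to 0.56, adjusted p = 0.112) at 48 h, so neither was called. The 48 h change was called higher without 0 h replicate 3 (0.38, edgeR adjusted p = 0.0365) and under 3 of 9 other settings, where it reached 0.44. From 24 h to 48 h the change was 0.07 (edgeR adjusted p = 0.540), and it was called with GC and length offsets (0.21, adjusted p = 0.0305). The 3 genes whose profile over the 9 libraries was nearest to that of Smarca4, among 10363 genes with a mean of at least 10 CPM, were Rpap1, Tbc1d13 and Supt6, with root mean square differences of 0.034, 0.044 and 0.048 in centred log2 CPM.

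Smarca2 encodes BRM, the alternative ATPase, and gave the largest change from 0 h of the 10 members. It lies at chr19:26605050-26778322 (GRCm38). Its level was 112, 115 and 84.2 CPM at 0 h, 66.2, 60.1 and 62.3 CPM at 24 h, and 40.3, 39.7 and 38.8 CPM at 48 h. All libraries of each later group lay below all those of the group before, with the widest spread at 0 h. Relative to 0 h, Smarca2 was 1.63-fold lower at 24 h (log2 fold change -0.71 ± 0.15 SE, n = 3 per group, edgeR quasi-likelihood adjusted p = 0.0109). It was 2.62-fold lower at 48 h (log2 fold change -1.39 ± 0.14 SE, edgeR adjusted p = 0.000439) and fell by a further 1.60-fold between 24 h and 48 h (-0.68 ± 0.07 SE, edgeR adjusted p = 0.000437). The call at 24 h was lost without 24 h replicate 2 (log2 fold change -0.67, edgeR adjusted p = 0.0602) or without 24 h replicate 3 (-0.69, edgeR adjusted p = 0.0535), and the calls at 48 h held under every alternative. In bulk RNA, fewer cells with a transcript and less of it per cell cannot be told apart. Of the marker sums given above, those of the stromal, myoid, Sertoli and Leydig lists were higher and those of the endothelial and macrophage lists lower in both later groups than at 0 h. From 24 h to 48 h, over which Smarca2 fell again, the endothelial sums fell without overlap (28.3 to 36.1 and 20.9 to 24.0 CPM). The stromal and myoid sums rose without overlap. Leydig sums (24.6 to 38.6 and 25.3 to 32.6 CPM) overlapped, as did macrophage sums (6.79 to 11.9 and 7.65 to 8.41 CPM). The Sertoli sums overlapped by a small margin (57.8 to 94.7 and 93.8 to 110 CPM). The part of these cells in the change of Smarca2 was not tested.

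The annotation gives Smarca2 46 transcripts, and gene counts do not separate them. Profiles nearest to that of Smarca2 were those of Pclaf (mean CPM of 84.1, 47.4 and 34.2 in the 3 groups), D430019H16Rik and Slc16a6, with root mean square differences of 0.120, 0.127 and 0.132 in centred log2 CPM.

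Expressed per length (FPKM over the union of exons), Smarca2 made up 11%, 9.76% and 6.92% of the summed ATPase mRNA in the 0 h libraries, 5.05%, 4.69% and 5.34% in those of 24 h, and 3.16%, 2.88% and 3.14% in those of 48 h. The mean share went from 9.23% ± 2.09 to 5.03% ± 0.33 and 3.06% ± 0.16 (SD, n = 3), with no overlap between groups. A two-sided exact permutation test of 3 against 3 libraries cannot go below p = 0.1, which it reached for each of these 3 differences (adjusted p = 0.164 over the 18 share tests, Benjamini-Hochberg). With the length of the longest transcript in place of the union, the shares were 19.4%, 11.2% and 6.97%, since the union of Smarca2 exons is 14269 bases and the longest transcript 5921. The sum of both ATPases was 79.7 ± 7.49, 87.8 ± 5.41 and 90.9 ± 5.21 FPKM.

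**Figure D3:**
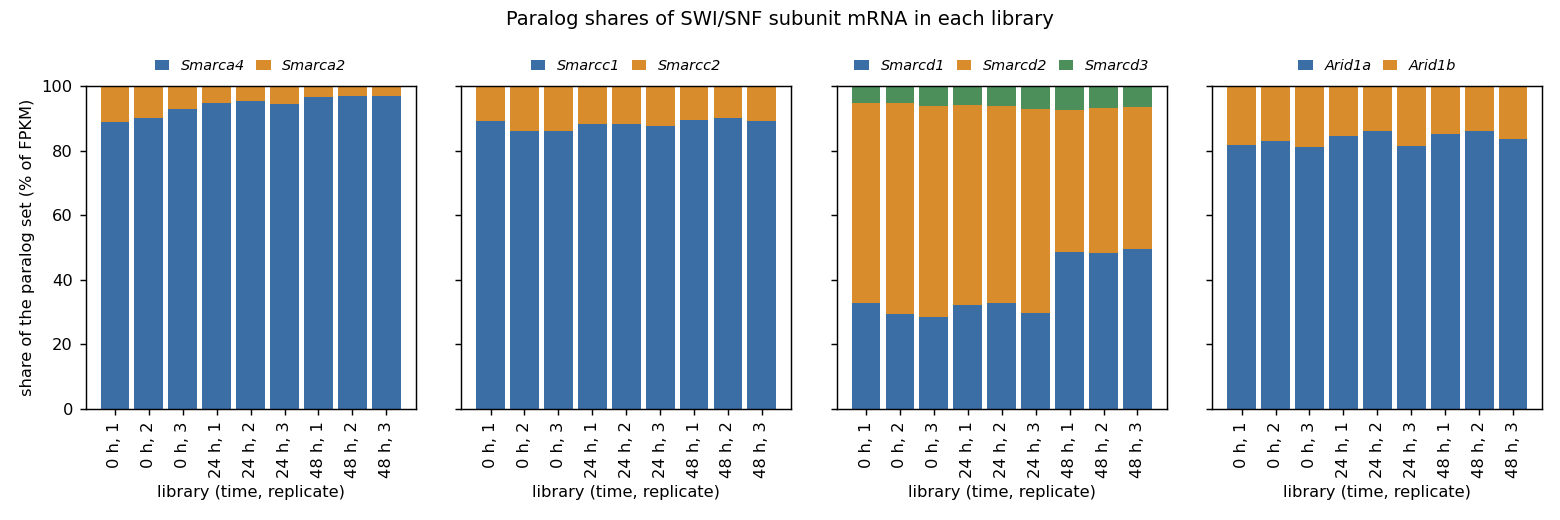
Share of each paralog (y axis, % of the summed FPKM of its paralog set) in each of the 9 libraries (x axis, time and replicate), one panel per set. The Smarca2 share narrows from 9.23% to 3.06% on average, and the boundary between Smarcd1 and Smarcd2 moves between 24 h and 48 h.

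Smarcb1 encodes BAF47 (SNF5), the core subunit with no paralog in this set. It lies at chr10:75896769-75921617 and read 108, 116 and 117 CPM at 0 h, 108, 115 and 113 CPM at 24 h, and 95.2, 110 and 95 CPM at 48 h. Its log2 fold change was -0.01 (95% interval -0.23 to 0.21, edgeR adjusted p = 0.962) at 24 h and -0.18 (-0.44 to 0.08, adjusted p = 0.261) at 48 h. None of its 3 comparisons was called, and without 48 h replicate 2 it was lower at 48 h than at 24 h (log2 fold change -0.24, edgeR adjusted p = 0.0340).

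Smarcc1 and Smarcc2 encode BAF155 and BAF170, the scaffold on which the core assembles. Smarcc1 (chr9:110117708-110240178) read 457, 428 and 405 CPM at 0 h, 488, 485 and 457 CPM at 24 h, and 498, 514 and 489 CPM at 48 h. Its 48 h change was 0.22 (95% interval -0.01 to 0.45, edgeR adjusted p = 0.138), so it was not called although the 48 h libraries did not overlap those of 0 h, and 1 of 9 other settings called it (library size alone, 0.33, adjusted p = 0.0406). Smarcc2 (chr10:128459248-128490482) read 39.5, 49.4 and 46.1 CPM at 0 h, 46.4, 45.7 and 45.0 CPM at 24 h, and 41.7, 39.1 and 41.4 CPM at 48 h. The 48 h libraries of Smarcc2 all lay below those of 24 h, with a log2 fold change of -0.18 (95% interval -0.33 to -0.02, edgeR adjusted p = 0.0951).

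Smarcc1 made up most of the scaffold mRNA at all times. The Smarcc2 share was 12.9% ± 1.75, 11.9% ± 0.24 and 10.3% ± 0.54 (SD, n = 3) of the FPKM of both genes, and the 48 h libraries did not overlap those of 0 h or of 24 h (exact permutation p = 0.1 for each, the smallest possible).

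Smarcd1, Smarcd2 and Smarcd3 encode the BAF60 subunits, which link the complex to transcription factors. Smarcd1 (BAF60A, chr15:99702129-99713991) read 66.1, 65.1 and 78.4 CPM at 0 h, 90.9, 91.0 and 80.5 CPM at 24 h, and 107, 123 and 110 CPM at 48 h. Each later group lay above the one before in all of its libraries. Smarcd1 was 1.62-fold higher at 48 h than at 0 h (log2 fold change 0.69 ± 0.12 SE, n = 3 per group, edgeR quasi-likelihood adjusted p = 0.00499) and 1.28-fold higher than at 24 h (0.36 ± 0.08 SE, edgeR adjusted p = 0.0128). The change at 24 h was 0.34 (95% interval 0.05 to 0.63) with an edgeR adjusted p of 0.0865, and it passed the threshold under 5 of 9 other settings and without 0 h replicate 3 (0.46, adjusted p = 0.0144). With all 9 libraries in 1 fit, the rise from 24 h to 48 h was not called (log2 fold change 0.37, edgeR adjusted p = 0.0762). Opposite-strand genes Gm17349 and Gm34939 share 12.7% of the Smarcd1 exon bases, and the library chemistry as described marks no strand.

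Smarcd2 (BAF60B, chr11:106263179-106272972) read 112, 130 and 161 CPM at 0 h, 156, 152 and 152 CPM at 24 h, and 86.8, 101 and 87.2 CPM at 48 h. All 48 h libraries lay below those of both earlier groups, while 0 h and 24 h overlapped. Between 24 h and 48 h Smarcd2 fell 1.68-fold (log2 fold change -0.75 ± 0.07 SE, n = 3 per group, edgeR quasi-likelihood adjusted p = 0.000302), a call that held under every alternative. Relative to 0 h it was 1.46-fold lower at 48 h (-0.54 ± 0.16 SE, edgeR adjusted p = 0.0335), and this call was lost when any library but 0 h replicate 1 was left out, with edgeR adjusted p of 0.0823 and 0.0569 without 0 h replicates 2 and 3 and of 0.137, 0.0578 and 0.130 without 48 h replicates 1, 2 and 3. Of the 9 other settings, only 5 called the same difference. With offsets for GC content and length it was -0.26 (edgeR adjusted p = 0.0575), and with library size as the only scaling it was -0.43 (edgeR adjusted p = 0.0690). At 24 h the change was 0.21 (95% interval -0.12 to 0.54, edgeR adjusted p = 0.341). It was called higher by edgeR without 0 h replicate 3 (0.38, adjusted p = 0.0224) and with GC and length offsets (0.29, adjusted p = 0.0301), and it was 0.10 without 0 h replicate 1.

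The ratio of Smarcd1 to Smarcd2 CPM was 0.591, 0.501 and 0.488 in the 0 h libraries, 0.585, 0.598 and 0.528 in those of 24 h, and 1.23, 1.21 and 1.26 in those of 48 h. The 3 libraries of 48 h were thus close to each other and above all 6 earlier libraries. As shares of the BAF60 mRNA in FPKM, Smarcd1 had 30.2% ± 2.27, then 31.5% ± 1.60 and 48.8% ± 0.56 over the 3 groups, and Smarcd2 had 64.4% ± 1.95, 62.1% ± 0.95 and 44.4% ± 0.44 (SD, n = 3). Both shares overlapped between 0 h and 24 h (exact permutation p = 0.5 and 0.2). At 48 h both shares differed from both earlier groups without overlap, at the smallest p the exact permutation test allows (p = 0.1, adjusted p = 0.164). The 3 genes together gave 57.8 ± 9.39, 68.8 ± 1.43 and 57.6 ± 4.65 FPKM. The genes nearest in profile to Smarcd1 were Rapgef1, Dmac2 and Zfp574 (root mean square differences of 0.062, 0.063 and 0.082 in centred log2 CPM over 9 libraries), and those nearest to Smarcd2 were Angel1, Wdr6 and Llgl2 (0.070, 0.077 and 0.080).

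Smarcd3 (BAF60C, chr5:24590818-24624411), known for its role in heart and muscle, had the lowest level of the BAF60 genes with 12.9, 14.4 and 20.8 CPM at 0 h, 21, 21.5 and 24.6 CPM at 24 h, and 20.3, 21.5 and 18.2 CPM at 48 h. The 0 h libraries differed among themselves, and replicate 3 lay within the range of the 48 h group and just below all 24 h libraries. The log2 fold change was 0.49 at 24 h (95% interval 0.04 to 0.95, edgeR adjusted p = 0.108) and 0.32 at 48 h (-0.14 to 0.78, edgeR adjusted p = 0.265). Without 0 h replicate 3 both were called higher by edgeR, at 0.75 (adjusted p = 0.00517) and 0.58 (adjusted p = 0.0177), and both were called under 2 of 9 other settings. Its counts are uncertain, since 48.2% of its exon bases overlap Chpf2 and Mir671 on the opposite strand. Chpf2 itself went from a mean of 6.39 to 8.89 and then 12.7 CPM over the 3 groups (48 h against 0 h, log2 fold change 0.98 ± 0.19 SE, edgeR adjusted p = 0.00731). The Smarcd3 share of BAF60 mRNA was 5.35% at 0 h and 6.80% at 48 h by the union of exons, and 11.5% and 14.6% by the longest coding transcript, a length chosen after the data were seen.

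Arid1a and Arid1b encode the large DNA-binding subunits that define canonical BAF. Arid1a (chr4:133679008-133756769) read 251, 273 and 244 CPM at 0 h, 320, 305 and 230 CPM at 24 h, and 313, 364 and 294 CPM at 48 h. The 24 h libraries spread on both sides of those of 0 h, and the 48 h libraries lay above them. The 48 h change was 0.34 (95% interval 0.06 to 0.62) and missed the threshold (edgeR adjusted p = 0.0671), while 3 of 9 other settings called it. From 24 h to 48 h the change was 0.17 (edgeR adjusted p = 0.363), called in 1 of 9 other settings. Arid1b (chr17:4994332-5347656) read 60.9, 61.0 and 62.5 CPM at 0 h, 63.4, 54.3 and 57.9 CPM at 24 h, and 59.7, 64.1 and 63.5 CPM at 48 h. Its groups overlapped in all comparisons, and the 95% interval of the 48 h change was -0.21 to 0.25 on the log2 scale. The Arid1b share of the ARID1 FPKM was 18%, 16% and 15%, and only the difference between 48 h and 0 h was without overlap (exact permutation p = 0.1, adjusted p = 0.164).

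Ordered by FPKM over the union of exons, the members at 0 h ran from Smarca4 (72.4 ± 8.22, SD) and Smarcc1 (54.9 ± 3.33) through Smarcd2 (37.4 ± 6.87), Arid1a (22.3 ± 1.31), Smarcd1 (17.4 ± 1.84), Smarcb1 (14.3 ± 0.66), Smarcc2 (8.11 ± 0.90), Smarca2 (7.27 ± 1.19) and Arid1b (4.88 ± 0.07) to Smarcd3 (3.13 ± 0.82). Smarcc2 and Smarca2 were the only neighbours in that order whose libraries overlapped. At 48 h the top of the order was again Smarca4 (88.1 ± 5.19) and Smarcc1 (63.9 ± 1.60), followed by Arid1a (28.2 ± 3.14), Smarcd1 (28.1 ± 2.09) and Smarcd2 (25.6 ± 2.33), which overlapped as neighbours. Smarca2 was then the lowest of the 10 at 2.78 ± 0.06 FPKM. These ranks depend on the length used: by the longest transcript Smarca2 held rank 6 at 0 h and rank 8 at 48 h, and by the longest coding transcript Smarcb1 held rank 3 at both times, since its coding transcript is 1660 bases long and its union of exons 7930.

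Beyond the 10 members, 21 further SWI/SNF subunits were listed, and 20, 19 and 20 of them were tested in the 3 comparisons. At 24 h relative to 0 h, 1 was called higher (Bcl7b) and 4 lower (Arid2, Dpf1, Bicra and Bcl7a). At 48 h relative to 0 h, 1 was called higher (Bcl7b) and 4 lower (Dpf1, Arid2, Bicra and Phf10), and between 48 h and 24 h there were 4 higher (Bcl11a, Pbrm1, Arid2 and Smarce1) and 5 lower (Dpf3, Dpf1, Ss18l1, Phf10 and Dpf2). The shares called were 25%, 26.3% and 45%, beside the 25.5%, 31.6% and 21.3% of all genes. The 9 calls between 48 h and 24 h fell to 3 with all 9 libraries in 1 fit and to between 3 and 6 whichever library was left out, and the 5 at 24 h numbered 2 to 7 when 1 library was left out. Bcl7a, Phf10 and Smarce1 are named here only to complete these counts.

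Dpf1 (BAF45B), a plant homeodomain subunit known from neuronal BAF, moved in the same direction as Smarca2. It read 58.7, 69.0 and 80.8 CPM at 0 h, 32.3, 26.4 and 27.2 CPM at 24 h, and 15.9, 15.9 and 13.3 CPM at 48 h, so each group lay below the one before. Its log2 fold change was -1.26 ± 0.16 SE at 24 h (edgeR quasi-likelihood adjusted p = 0.00124) and -2.21 ± 0.16 SE at 48 h (edgeR adjusted p = 8.3e-05). Its paralog Dpf2, one of the most abundant of these subunits per length, read 201 to 231 CPM at 0 h and 170 to 192 CPM at 48 h. The Dpf2 difference between 48 h and 24 h was called by a small margin (log2 fold change -0.20, edgeR adjusted p = 0.0494), and none of the 9 other settings called it. Actb, the other most abundant, read 1565 to 1766 CPM at 0 h and 1400 to 1620 CPM at 48 h and was not called. Dpf3 was scarcely detected, with group means of 0.465, 0.677 and 0.153 CPM.

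Arid2 and Pbrm1 belong to the PBAF form of the complex. Arid2 read 154.5, 131 and 78 CPM at 0 h, 45.8, 39.3 and 39.9 CPM at 24 h, and 56.7, 50.7 and 53.2 CPM at 48 h, with log2 fold changes from 0 h of -1.53 ± 0.25 SE (edgeR adjusted p = 0.00386) and -1.18 ± 0.24 SE (edgeR adjusted p = 0.00881). It then rose by 0.35 ± 0.09 SE from 24 h to 48 h (edgeR adjusted p = 0.0198), a call lost with GC and length offsets (0.21, adjusted p = 0.106) and with all 9 libraries in 1 fit (adjusted p = 0.370), and in 3 of the 6 fits that left out 1 library. Pbrm1, which encodes the multi-bromodomain subunit BAF180, read 184, 129 and 56.4 CPM at 0 h, far apart within the group, then 116, 138 and 135 CPM at 24 h and 205, 153 and 213 CPM at 48 h. Its difference between 48 h and 24 h was 0.54 ± 0.12 SE (edgeR adjusted p = 0.0142), and it was not called with all 9 libraries in 1 fit (adjusted p = 0.392) or without 24 h replicate 1, 48 h replicate 1 or 48 h replicate 3 (edgeR adjusted p = 0.0577, 0.0520 and 0.0521).

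Bicra, a subunit of the noncanonical GBAF form, read 18.9, 30.5 and 29.0 CPM at 0 h, 15.3, 11.2 and 8.45 CPM at 24 h, and 12.6, 14.8 and 10.3 CPM at 48 h, with log2 fold changes of -1.15 ± 0.27 SE and -1.05 ± 0.22 SE (edgeR adjusted p = 0.0181 and 0.0101). Its call at 24 h was lost without 0 h replicate 2, 24 h replicate 2 or 24 h replicate 3 (edgeR adjusted p = 0.0675, 0.0765 and 0.0650). Bcl7b, a small accessory subunit, read 18 to 22.3, 27.5 to 31.4 and 26.8 to 34.0 CPM over the 3 groups, a rise of 0.53 ± 0.13 SE and 0.57 ± 0.14 SE (edgeR adjusted p = 0.0206 and 0.0216) and these calls were kept in 2 and 3 of the 6 fits that left out 1 library. Bcl11a, a zinc finger subunit known from lymphoid and neural cells, stayed low, with 2.39 to 4.06, 1.87 to 2.30 and 3.75 to 4.40 CPM over the 3 groups, and its rise from 24 h to 48 h was 0.94 ± 0.19 SE (edgeR adjusted p = 0.00912). Ss18l1 (CREST) was lower at 48 h than at 24 h by a log2 fold change of -0.29 ± 0.08 SE (edgeR adjusted p = 0.0354), which DESeq2 did not call (adjusted p = 0.0551) and 5 of the 6 fits that left out 1 library lost.

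**Figure D4:**
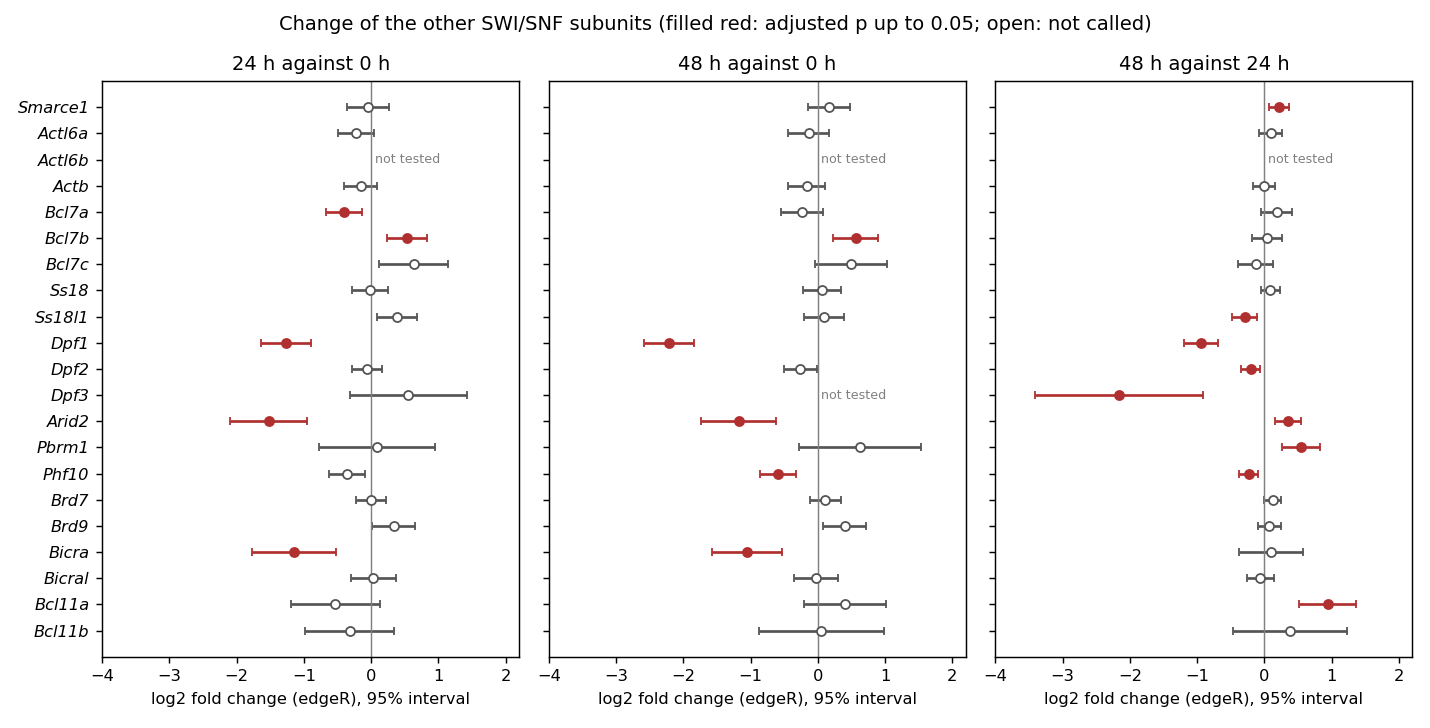
The log2 fold change (x axis) of the 21 other SWI/SNF subunits with its 95% interval from edgeR in the 3 comparisons, 3 libraries a group. Filled red points passed an adjusted p of 0.05. Dpf1 lies left of 0 in all panels, and Arid2 and Bicra lie left of 0 in the comparisons with 0 h.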

How the data were processed

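Poly(A) RNA of 9 libraries (3 at each of 0 h, 24 h and 48 h) was analysed from the raw counts per gene that the authors deposited, with no normalization. The submitters' processing notes name fastp, HISAT2, featureCounts and GRCm38, and no versions. The annotation release and strand setting are not given in the sources used here. Of 46078 identifiers, 45229 matched GENCODE M21, from which symbols, positions and lengths were taken.

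Each comparison used its 6 libraries: filterByExpr, TMM and edgeR 4.0.16 in R 4.3.3 (quasi-likelihood, two-sided), with Benjamini-Hochberg adjustment over all genes tested and a threshold of 0.05. CPM were TMM-normalized over 9 libraries (prior count of 2 on the log2 scale), and FPKM came from counts and the union of exons. Paralog shares were compared by exact permutation (scipy 1.17.1). The fits were tested on simulated data. For 24 h against 0 h, edgeR called 51 of 108 genes given a log2 change of 1. It called 49 of 96 for 48 h against 0 h and 104 of 106 for 48 h against 24 h. DESeq2 called 85, 77 and 105 of these genes. For a log2 change of 2, edgeR called 87 of 92, 101 of 104 and 94 of 94. Changes as small as those of most members can thus go uncalled in the comparisons with 0 h. Alternatives were DESeq2 1.42.0, its size factors, library size alone, a single fit of all 9 libraries, no filter, a minimum of 10 counts in each library, a replicate block, GC and length offsets, and leaving out each library.

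Members, lists and motifs were chosen with earlier results of these data known. Named genes were the 10 members, the called further subunits with the 3 largest rises and falls in each comparison and the 2 most abundant per length, and the 3 genes nearest in profile (mean of at least 10 CPM) to a member described in detail. Precision is limited by the 16825251 to 22201892 counts per library and by the spread of 3 replicates of 1 cell line.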

Additional observations from a re-analysis of the deposited data

How the results depend on the processing

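The calls of Smarca2 and Smarcd1 at 48 h relative to 0 h, and of Smarca2 and Smarcd2 at 48 h relative to 24 h, held under all 15 alternatives, and all recomputed differences of paralog shares but 1 kept their direction. Of the recomputed log2 fold changes of members, 397 kept their direction and side of the threshold, 25 newly passed it, 12 no longer did and 16 turned direction. For 24 h against 0 h, the count of members called (1) was 2 with library size alone, with at least 10 counts in every library or with all 9 libraries in 1 fit, 4 with GC and length offsets, and 0 to 4 without 1 replicate. For 48 h against 0 h, the count (3) was 5 with library size alone and with GC and length offsets. The calls over all genes moved too. At 24 h they went from 4494 to 4802 with library size alone and to 6341 with the offsets. At 48 h relative to 0 h they went from 5602 to 5765 and 7612. The further subunits called at 24 h (5) numbered 8 with all 9 libraries in 1 fit, 9 with GC and length offsets and 2 to 7 without 1 replicate. Their count at 48 h relative to 0 h (5) was 8 with all 9 libraries in 1 fit, and that between 48 h and 24 h (9) was 3 with all 9 libraries in 1 fit and 3 to 6 without 1 replicate. The cause was not tested.

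Small changes near 0 turned direction, none of them called. Smarcb1 at 24 h was 0.10 with library size alone, 0.037 with at least 10 counts in every library, 0.0052 with GC and length offsets and -0.043 to 0.041 without 1 replicate. Smarcc2 at 24 h was -0.046 to 0.096 without 1 replicate and 0.032 at 48 h with the offsets. Arid1b was 0.057 at 24 h with library size alone and -0.13 to 0.0013 without 1 replicate, and at 48 h it was -0.025 with the offsets and -0.0072 to 0.063 without 1 replicate. Dpf2 at 24 h was 0.053 with library size alone, 0.010 with the offsets and -0.11 to 0.019 without 1 replicate, and Pbrm1 at 24 h was -0.23 to 0.50 without 1 replicate. Between 48 h and 24 h, Smarcd3 was 0.058 with the offsets, and Actb was 0.0055 with DESeq2, 0.0071 with its size factors, 0.015 with at least 10 counts in every library, 0.0023 with all 9 libraries in 1 fit, 0.054 with the offsets and -0.073 to 0.033 without 1 replicate. Over the same interval, Bcl7b was -0.050 to 0.12 and Bicra -0.072 to 0.34 without 1 replicate, and the Arid1b share differed by -1.94 to 0.41 percentage points.

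The counts gave no clear sign that the replicate numbers pair the libraries. For 24 h against 0 h, same-numbered libraries correlated at -0.261, 0.0178 and -0.0912 in their deviations from the group means. The values were 0.0845, 0.196 and -0.28 for 48 h against 0 h and 0.00112, -0.0575 and 0.0991 for 48 h against 24 h. Not every library correlated best with its own number. Deviations from a mean of 3 libraries sum to 0, so these correlations cannot exclude a pairing. With the replicate number as a block, 1, 2 and 3 members were called in the 3 comparisons and 2, 4 and 4 further subunits. Over all genes, the block gave 3007, 4013 and 2497 calls. With the block and the GC and length offsets together, 3, 5 and 4 members and 8, 6 and 4 further subunits were called, and the changes that turned direction were 0.010 for Smarcb1 and 0.011 for Dpf2 at 24 h, 0.031 for Smarcc2 and -0.024 for Arid1b at 48 h, and 0.062 for Smarcd3 and 0.052 for Actb between 48 h and 24 h.

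The limits are 3 libraries a group, 1 cell line, and counts that do not separate isoforms. The strand setting of the counts is not given, and the library chemistry as described marks no strand.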

Other observations

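Other chromatin remodeller families were measured in the same libraries. Of the 9 listed ISWI genes, all tested, 2 were called at 24 h relative to 0 h (1 higher and 1 lower), 3 at 48 h relative to 0 h (2 higher and 1 lower) and 1 between 48 h and 24 h (higher), with median log2 fold changes of 0.09, 0.37 and 0.16. Of the 16 listed CHD and NuRD genes, all tested, 4 (2 higher and 2 lower), 3 (all lower) and 11 (4 higher and 7 lower) were called, with medians of 0.02, -0.01 and -0.12. The calls are those of edgeR at an adjusted p of up to 0.05, and 25.5%, 31.6% and 21.3% of all genes tested were called in the same comparisons. The calls of these families under the alternative settings were not examined.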
